A study of Rattus norvegicus with 6 samples.

Results

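The cadherins, protocadherins and integrins are families of membrane proteins that hold cells to each other and to the extracellular matrix. The set described here holds 84 genes: cadherins, clustered and non-clustered protocadherins, the large Fat, Dachsous and Celsr cadherins, integrin subunits, contactins and their associated proteins, the NCAM and L1 family, nectins, Cadm proteins, neuroligins and neurexins. They were chosen by gene symbol from the 10653 identifiers in the table of genes that the authors called different between the ages, of which 10093 have a name, while the count table holds 29479 identifiers. *Cdh5*, the cadherin of endothelial junctions, was left out of the set by its definition. Membership thus rests on the same age comparison that is described below, so the differences between ages are a description, and whether a gene passed the threshold of the fit is given as a label of its values and not as evidence. Genes of these families that the authors did not call have no name in the files used here and could not be included.

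RNA came from the lateral ventricular choroid plexus of Sprague-Dawley rats at embryonic day 15 (E15) and at 6 weeks of age (adult), as 3 libraries per age, each made from the plexuses of 10 pooled animals. All animals were untreated controls. The plexuses were dissected from both ventricles and pooled without a sorting step, so a pool held the epithelium together with stroma, vessels and blood cells. In such samples fewer cells of a type and less RNA per cell cannot be told apart. The labels name choroid plexus epithelium. Of 13 markers listed for it, 4 were not matched to a name in the files, and only genes called between the ages had names. The other 9 were detected in every pool, which that choice favours. Their summed normalized counts were 452220 to 553510 at E15 and 4138700 to 5072600 in the adult. Most of each sum came from *Ttr*, with a mean of 445730 at E15 and 3995200 in the adult.

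Cadherins join neighbouring cells by binding the same protein on the opposite cell, and their cytoplasmic tails are linked through catenins to actin. Protocadherins lack that catenin link, and Fat, Dachsous and Celsr proteins are very large cadherins that orient cells within the plane of an epithelium. Integrins are pairs of an alpha and a beta subunit that bind laminins, fibronectin, collagens or cell surface ligands, and the choice of partner sets the ligand. The choroid plexus epithelium is a single cell layer that rests on a basement membrane over a vascular stroma and carries junctions that form the barrier between blood and cerebrospinal fluid.

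Library totals lay between 17875089 and 19204440 counts. Normalized counts are raw counts divided by the library size after trimmed mean of M values (TMM) scaling, and levels were not compared between genes because transcript lengths were not used here. The 10 most abundant genes took 24.2 to 27.3% of the counts in the adult pools and 4.86 to 5.90% at E15. Scaling by total counts only moved the median over the 16643 genes tested, on the log2 scale, from 0.14 to 0.95, and values below are therefore relative to TMM scaling. Among E15 pools the first stood apart, with a Spearman coefficient of 0.979 and 0.982 across genes against the other two, which had 0.996 with each other.

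Of the 84 genes, 83 had more than 10 counts in all and were tested, and 73 passed an adjusted p of 0.05 in the quasi-likelihood test of edgeR. Among all genes tested 64.0% passed, and nothing is read from the difference since the same contrast chose the set. Of the 73 genes, 59 were higher at E15 (34.7% of all genes tested) and 14 in the adult (29.3% of all genes tested). Scaled by total counts only, the numbers were 67 and 8, without E15 pool 1 they were 55 and 13, and without Adult pool 2 they were 61 and 12. Over all genes tested, total-count scaling called 9799 at E15 and 2292 in the adult, against 5773 and 4879 with TMM scaling. The shares of all genes tested also stand beside the counts of families and lists below. The median log2 fold change, E15 over adult, was 2.08 over the set and 0.14 over all genes tested. The 3 E15 pools did not overlap the 3 adult pools for 72 of the 84 genes (70.1% of all genes tested).

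**Figure D1:**
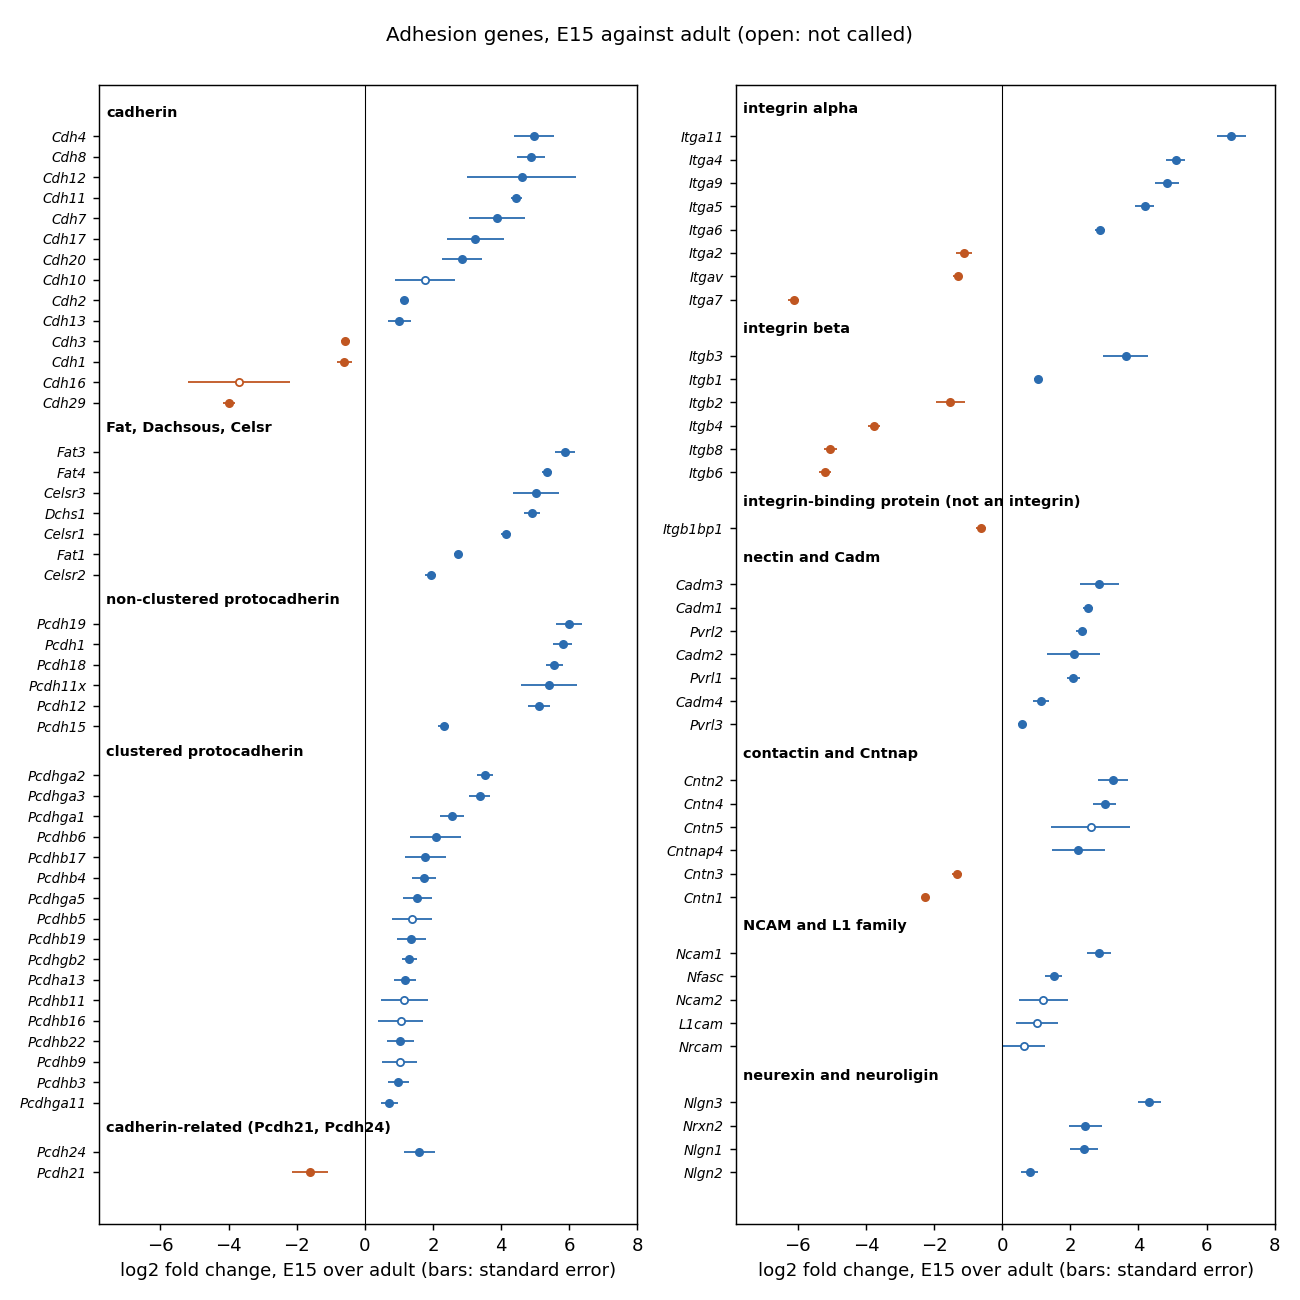
Fitted log2 fold change, E15 over adult, of the 83 genes tested, by family, with the standard error as a horizontal bar. Blue points were higher at E15, orange points in the adult, and open points are the 10 genes that did not pass the adjusted p of 0.05. Values run from -6.12 for *Itga7* to 6.73 for *Itga11*, and every Fat, Dachsous, Celsr and non-clustered protocadherin gene lies to the right of 0.

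The members closest to the authors' threshold, by a rebuilt exact test with a common dispersion, were *Cdh1*, *Pcdhb9*, *Pcdhb16*, *Nrcam*, *Cdh3* and *Pvrl3*. Raw counts of *Cdh1* were 110, 149 and 135 at E15 against 92, 144 and 113 in adults, and those of *Pcdhb9* were 29, 34 and 17 at E15 against 5, 12 and 6 in adults. Genes just outside the threshold carry no name here. *Cdh19* had 8 raw counts in all and was not tested.

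The integrin alpha subunits held both extremes of the set, and both directions occurred among alpha and among beta subunits. Of 8 alpha subunits 5 were higher at E15 and 3 in the adult, and of 6 beta subunits 2 were higher at E15 and 4 in the adult. The promoters of the 2 genes with the largest difference in each direction for which RefSeq (build GRCr8) holds a promoter are shown because they stand at the 2 ends of the set. They are the 250 bases before the annotated start, read 5′ to 3′ on the gene's strand, and capitals mark a match to one of the motifs searched on both strands, the E-box CAGGTG and the GC box GGGCGG, which overlap neither each other nor another motif here.
Itga11: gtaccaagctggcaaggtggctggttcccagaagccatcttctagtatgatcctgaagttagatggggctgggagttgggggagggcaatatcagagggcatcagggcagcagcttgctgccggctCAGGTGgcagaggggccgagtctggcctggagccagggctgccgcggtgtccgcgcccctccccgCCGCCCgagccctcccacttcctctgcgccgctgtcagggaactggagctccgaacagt
Fat3: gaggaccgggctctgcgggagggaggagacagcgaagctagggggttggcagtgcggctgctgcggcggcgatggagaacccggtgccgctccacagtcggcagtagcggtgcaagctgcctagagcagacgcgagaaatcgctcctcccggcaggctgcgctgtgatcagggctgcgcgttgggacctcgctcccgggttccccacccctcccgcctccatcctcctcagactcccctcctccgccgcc
Itgb6: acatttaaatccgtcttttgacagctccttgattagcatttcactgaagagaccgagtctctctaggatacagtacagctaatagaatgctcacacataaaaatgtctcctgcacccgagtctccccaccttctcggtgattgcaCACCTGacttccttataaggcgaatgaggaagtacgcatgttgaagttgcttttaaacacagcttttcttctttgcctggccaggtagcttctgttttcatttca
Itgb8: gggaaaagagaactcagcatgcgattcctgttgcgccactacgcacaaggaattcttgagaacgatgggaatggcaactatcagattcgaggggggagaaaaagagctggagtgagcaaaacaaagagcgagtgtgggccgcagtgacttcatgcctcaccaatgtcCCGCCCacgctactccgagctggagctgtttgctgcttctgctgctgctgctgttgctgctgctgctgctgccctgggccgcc
The *Itga11* promoter (chr8:72041182-72041431, plus strand) held the E-box with its first base at -124 and the GC box at -59. That of *Fat3* (chr8:21555241-21555490, minus strand) held none of the motifs searched. In *Itgb6* (chr3:65530334-65530583, minus strand) the E-box stood at -105, and in *Itgb8* (chr6:146351246-146351495, minus strand) the GC box stood at -83. Apart from the E-box of *Itga11*, the matches shown are the reverse complement of the motif. In all, 81 genes of the set matched a RefSeq symbol, 5 of them by a synonym, and 54 had a promoter in the table. The E-box CAGGTG occurred in 15.6% of 27457 rat promoters, in 4 of 45 for genes with a fitted value higher at E15, called or not, and in 1 of 8 for those with one higher in the adult. The GC box GGGCGG occurred in 32.4% of all promoters, in 16 of the 45 and in 4 of the 8. The OTX-type motif TAATCC was in 6.33% of all promoters, in *Cadm3* and *Pcdh15* of the 45 and in 0 of the 8, and the TATA box TATAAA in 13.1%, in *Pcdhga5* and in 0 of the 8. A match is a description of the letters and not a binding site.

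Laminin-binding subunits moved in both directions. *Itga7*, which pairs with the beta-1 subunit as a laminin receptor best known in muscle, had normalized counts of 23.7, 28.5 and 23.5 in the E15 pools against 1855, 1922 and 1523 in adult ones. The ages lay far apart, with a fitted adult excess of 69.6-fold (log2 fold change -6.12, SE 0.17). *Itgb4*, whose product forms the laminin receptor of hemidesmosomes, rose from 41.7, 50.8 and 49.4 at E15 to 622, 699.9 and 606 in the adult. That was 13.5-fold (log2 fold change -3.76, SE 0.17). *Itga6*, the only alpha partner of the beta-4 subunit, went the other way, with 1342, 1199.7 and 1091 at E15 against 154, 177 and 165 in adults. The 3 E15 pools were all above the adult pools, by 7.32-fold (log2 fold change 2.87, SE 0.14).

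*Itgb6*, *Itgb8* and *Itgav*, whose products are known to bind latent TGF-beta, were higher in the adult. *Itgb6*, typical of epithelia, had 133, 80.9 and 102 normalized counts at E15 against 3802, 3706 and 4020.0 in adults. The difference was 36.6-fold (log2 fold change -5.19, SE 0.18). *Itgb8*, known for its role around brain vessels and in neuroepithelium, had 354, 261 and 239 at E15 against 8696, 8612 and 11068 in adults, a difference of 33.2-fold (log2 fold change -5.05, SE 0.19). *Itgav*, the alpha partner of both, was at 1014, 830.1 and 761 at E15 against 2078, 2148 and 2230.4 in adults. Its 2.48-fold difference (log2 fold change -1.31, SE 0.13) was smaller than that of either beta subunit, and in all 3 genes the ages did not overlap.

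Integrin beta-1, the most widely shared beta subunit, was higher at E15. *Itgb1* had 11958, 9929.9 and 9737 normalized counts at E15 against 4997, 5146 and 5212 in adults, which was 2.06-fold (log2 fold change 1.04, SE 0.11). Its alpha partners did not share a direction, since *Itga4*, *Itga5*, *Itga6*, *Itga9* and *Itga11* were higher at E15 and *Itga2*, *Itga7* and *Itgav* in the adult. *Itga11*, a collagen receptor of fibroblasts, had 479.6, 572 and 424 at E15 against 0, 7.79 and 5.49 in adults. Its 106-fold difference (log2 fold change 6.73, SE 0.43) was the largest at E15 in the set, and it was 165-fold without Adult pool 2. *Itga2*, a collagen receptor of epithelia and platelets, had 106, 97.8 and 68.2 at E15 against 201, 174 and 216 in adults, or 2.17-fold more in adults (log2 fold change -1.12, SE 0.24), and it did not pass the threshold with total-count scaling (-0.31).

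*Itga5*, *Itga4* and *Itga9* were higher at E15. *Itga5*, the fibronectin receptor subunit, had 911, 1169.7 and 1039 normalized counts at E15 against 32.6, 53.2 and 85.2 in adults (18.2-fold, log2 fold change 4.18, SE 0.28). *Itga4*, which binds fibronectin and the vascular adhesion molecules of leukocyte traffic, had 394, 315 and 280.0 at E15 against 7.08, 10.4 and 11 in adults (34.2-fold, log2 fold change 5.10, SE 0.28). *Itga9*, a receptor for tenascin and related ligands, had 267, 372 and 307 at E15 against 11.3, 5.19 and 16.5 in adults (28.5-fold, log2 fold change 4.84, SE 0.35). None of the 3 genes overlapped between ages.

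Integrin subunits known from blood cells had few counts at both ages. *Itgb3*, the beta subunit of the platelet fibrinogen receptor that also serves vessels and bone, had 30.3, 30.8 and 43.1 normalized counts at E15 against 0, 3.90 and 4.12 in adults. The fitted difference was 12.3-fold (log2 fold change 3.62, SE 0.67) on 6 raw adult counts. Of 5 platelet markers named, 4 were higher at E15, with summed normalized counts of 214 to 362 at E15 and 52 to 105 in the adult and with *Ppbp* at 0 in every adult pool. *Itgb2*, the leukocyte beta subunit, had 17.2, 47.0 and 32.9 at E15 against 60.9, 127 and 92.0 in adults (2.88-fold, log2 fold change -1.52, SE 0.42). It did not pass with total-count scaling (-0.73) or with totals that leave out the 10 most abundant genes (-1.06). Of 7 macrophage markers 3 were higher at E15 and 3 in the adult (2 with total-count scaling), summed at 2166 to 2578 and 3384 to 4402. The part of these cells in either gene's values was not tested.

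**Figure D2:**
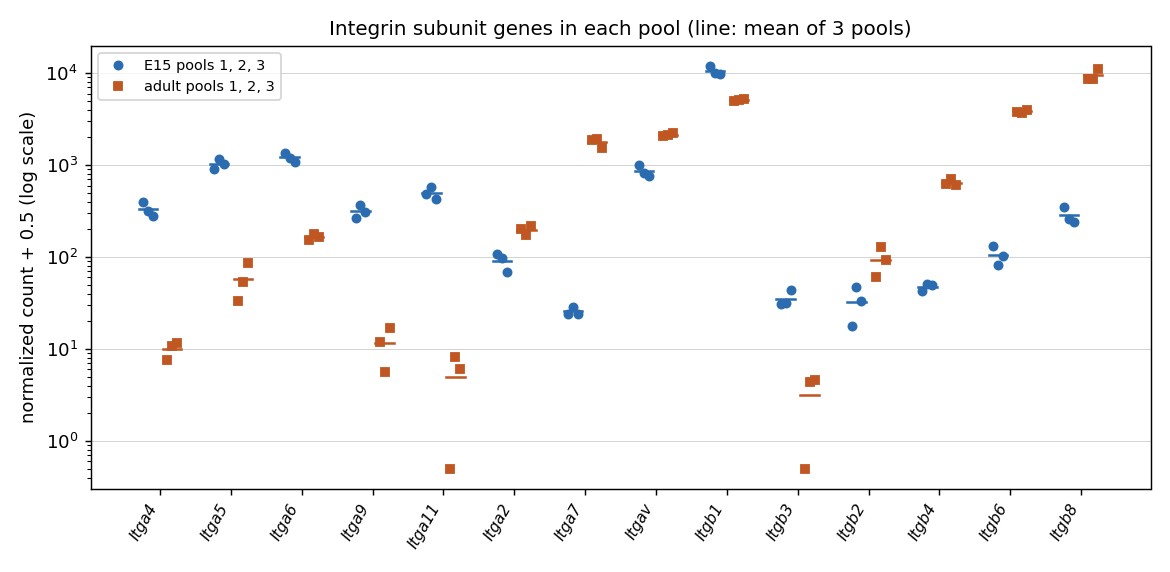
Normalized counts plus 0.5 (log axis) of the 14 integrin subunit genes in each of the 3 E15 pools (blue circles) and 3 adult pools (orange squares), with a line at the mean of each age. E15 is above the adult for *Itga4*, *Itga5*, *Itga6*, *Itga9*, *Itga11*, *Itgb1* and *Itgb3*, the adult is above E15 for the other 7 genes, and the ages overlap in none.

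*Itgb1bp1* was taken in by its symbol but encodes a cytoplasmic protein that binds the tail of the beta-1 subunit. It had 629, 638 and 602 normalized counts at E15 against 888, 841 and 1173 in adults (1.55-fold, log2 fold change -0.63, SE 0.15), and its direction turned with total-count scaling (0.17). Among 11 named genes that link integrins to actin and signalling, 6 were higher at E15 and 5 in the adult (2 with total-count scaling), with a median log2 fold change of 0.90. *Flna*, an actin crosslinker that binds integrin tails, had the most counts, with a log2 fold change of 2.27, and *Lims2* (-3.70) and *Tns1* (-1.96) were lower at E15. *Lims2* had few raw counts, 0, 11 and 8 at E15 against 52, 61 and 33 in adults. Of 16 named integrin ligands 12 were higher at E15 and 3 in the adult (13 and 1 with total-count scaling). The laminin chain *Lama1* (6.76) and the vascular addressin *Madcam1*, a ligand of the alpha-4 subunit (6.74), differed most, whereas the laminin chain *Lama2* was higher in the adult (-2.42). The value of *Madcam1* (SE 0.60) rests on raw counts of 1, 1 and 0 in the adult pools.

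Among the classical cadherins, N-cadherin was higher at E15, and P- and E-cadherin were slightly higher in the adult. *Cdh2* (N-cadherin), the main cadherin of neural tissue, had 10787, 9194 and 8782 normalized counts at E15 against 4178, 4394 and 4352 in adults. The 2.23-fold difference (log2 fold change 1.15, SE 0.11) left the ages separate. *Cdh3* (P-cadherin), an epithelial cadherin first known from placenta, had 3678, 4849.8 and 4654 at E15 against 6778, 6487 and 6367 in adults (log2 fold change -0.57, SE 0.12). *Cdh1* (E-cadherin), the cadherin of most epithelia, had 90.0, 115 and 106 at E15 against 130.3, 187 and 155 in adults (log2 fold change -0.60, SE 0.23). Both were about 1.5-fold higher in the adult, at 1.49-fold and 1.52-fold, the ages did not overlap, and both turned to the E15 side under total-count scaling (0.23 and 0.20). The 2 genes are neighbours in the RefSeq annotation with no gene between them. *Cdh1* did not pass the threshold when any 1 pool other than Adult pool 1 was left out.

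*Cdh29* was higher in the adult, with 141, 219 and 181 normalized counts at E15 against 2687, 2728 and 3148 in adults. The adult pools were 15.8-fold higher (log2 fold change -3.98, SE 0.18), and no pool of one age reached the other. *Cdh16*, the kidney cadherin, had 1 raw count at E15 and 11 in the adult, 9 of them in pool 2, a ratio of 18.9 with a 95% interval of 2.75 to 815 that covers counting error only. Without Adult pool 2 the ratio was 5.29, with an interval of 0.276 to 312. *Cdh19*, known from Schwann cells and other glia, had 0 counts at E15 against 6, 2 and 0 in the adult pools. With 3 counts put in place of the 0 over the E15 pools, it was 4.59-fold higher in the adult, and 1.69-fold without Adult pool 1. Such a value leaves out the counting error of the higher age and is not a lower limit. Both *Cdh16* and *Cdh19* overlapped between ages. *Cdh16* did not pass the threshold with all pools and passed without Adult pool 1.

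Cadherins known from mesenchyme and neurons were enriched at E15. *Cdh11*, a cadherin of mesenchyme, had 3315, 4029.7 and 3631 normalized counts at E15 against 129, 187 and 184 in adults (21.9-fold, log2 fold change 4.45, SE 0.17). *Cdh8*, found on subsets of neurons, had 127, 213 and 195 at E15 against 7.08, 7.79 and 2.75 in adults (29.7-fold, log2 fold change 4.89, SE 0.41). *Cdh4* (R-cadherin), first known from retina, had 177, 246 and 260.4 at E15 against 0, 15.6 and 5.49 in adults, which was 31.1-fold with all pools and 76.5-fold without Adult pool 2. For all 3 the E15 pools lay above every adult pool. Of 8 mesenchymal markers named, 6 were higher at E15 and 2 in the adult, with sums of 42552 to 56350 and 15944 to 16567, and the part of this cell type in the *Cdh11* values was not tested.

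The remaining cadherins had low counts. *Cdh7* had 44.2, 35.4 and 43.9 normalized counts at E15 against 0, 7.79 and 0 in adults. It was 14.6-fold higher at E15 (log2 fold change 3.87, SE 0.82). Without Adult pool 2, and with 3 counts in place of the 0 over the pools left, it was 19.7-fold higher. *Cdh17*, known from intestine, had 36.8, 14.6 and 29.0 at E15 against 1.42, 0 and 6.87 in adults (9.42-fold). Without Adult pool 3 only 1 adult count was left, and the ratio was 39.3 with a counting interval of 6.89 to 1567, while the fit without Adult pool 2 gave 6.14-fold. *Cdh20* (7.23-fold) and *Cdh13*, a cadherin held by a lipid anchor (2.01-fold), were also higher at E15. Without Adult pool 1 or pool 3, and without E15 pool 3, *Cdh13* no longer passed the threshold. *Cdh12* had 4, 4 and 3 raw counts at E15 and 0 in the adult. It was 2.13-fold higher at E15 with 3 counts in place of that 0, and lost its call without any 1 adult pool. *Cdh10* had 33.6, 15.4 and 15.7 at E15 against 2.83, 15.6 and 0 in adults, so the ages overlapped through Adult pool 2, and it passed the threshold without that pool.

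Cytoplasmic partners of the cadherins were split. Of 13 named catenins and associated proteins 9 were higher at E15 and 4 in the adult (median log2 fold change 1.24), and 1 of the 4 remained with total-count scaling. *Ctnnb1* (beta-catenin), which links the cadherin tail to alpha-catenin, was 1.36 and the neural alpha-catenin *Ctnna2* was 4.66, while *Ctnnal1*, an alpha-catenin-like protein, was -1.86. Of 5 named genes of the desmosome, the cadherin junction anchored to intermediate filaments, 4 were higher in the adult (3 with total-count scaling). The summed normalized counts of these 5 were 1416 to 1479 at E15 and 5998 to 6163 in the adult. *Dsp* (desmoplakin, -4.32) differed most, followed by *Pkp2* (-2.51) and the desmosomal cadherin *Dsg2* (-1.64), and *Ppl* was the exception (1.35).

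All 7 Fat, Dachsous and Celsr genes were higher at E15, with a median log2 fold change of 4.91. In none of them did the ages overlap (70.1% of all genes tested had no overlap). All 7 passed the threshold under each scaling tried, while 34.7% of all genes tested were called higher at E15 with TMM scaling. *Fat1* had 16941, 22335 and 18724 normalized counts at E15 against 2992, 2768 and 2932 in adults (6.67-fold, log2 fold change 2.74, SE 0.12). *Fat3* had 554, 420.4 and 476 at E15 against 11.3, 9.09 and 4.12 in adults (58.3-fold, log2 fold change 5.87, SE 0.30). *Fat4*, the receptor for Dachsous, and *Dchs1*, its ligand, are partners across cell contacts. *Fat4* had 2135, 2364 and 2161 at E15 against 51.0, 61 and 50.8 in adults (40.7-fold). *Dchs1* had 2499, 3558 and 3354 at E15 against 70.8, 138 and 103 in adults (30.1-fold).

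The Celsr genes encode the seven-pass cadherins of the core planar polarity complex. *Celsr1*, typical of epithelia, had 2027, 2373 and 2543 normalized counts at E15 against 144, 116 and 132 in adults (17.7-fold, log2 fold change 4.15, SE 0.15). *Celsr2* had 2825, 4408 and 3944 at E15 against 909, 999 and 1003 in adults (3.84-fold, log2 fold change 1.94, SE 0.16). *Celsr3*, the neuronal member, had 151, 87.8 and 170.2 at E15 against 1.42, 10.4 and 0 in adults. It was 32.6-fold higher at E15 with all pools, and without Adult pool 2 the ratio was 195 on 1 adult count, with a counting interval of 34.8 to 7702. Of 9 named planar polarity partners 6 were higher at E15, among them *Vangl2* (3.47), and 3 in the adult, of which *Prickle2* (-1.83) differed most and *Vangl1* and *Ankrd6* turned to the E15 side with total-count scaling.

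All 6 non-clustered protocadherins were higher at E15 (median log2 fold change 5.48), and passed under each scaling tried. With TMM scaling 34.7% of all genes tested were called higher at E15. *Pcdh18* had 3304, 3125 and 2683 normalized counts at E15 against 36.8, 67.5 and 87.9 in adults (47.2-fold, log2 fold change 5.56, SE 0.25). *Pcdh1* had 466, 748 and 635 at E15 against 11.3, 13 and 8.24 in adults (56.0-fold, log2 fold change 5.81, SE 0.28). *Pcdh19*, a partner of N-cadherin, had 479, 572 and 612 at E15 against 2.83, 16.9 and 5.49 in adults, a difference of 63.7-fold that became 126-fold without Adult pool 2. Every E15 pool was above every adult pool for these genes.

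*Pcdh12*, a protocadherin of endothelium, had 397, 494 and 431 normalized counts at E15 against 17, 5.19 and 16.5 in adults (34.3-fold, log2 fold change 5.10, SE 0.32). All 12 named endothelial markers were also higher at E15 (median log2 fold change 3.43), with sums of 12954 to 15903 at E15 and 1058 to 1636 in the adult and none at 0, and their part in the *Pcdh12* values was not tested. *Pcdh15*, known from the tip links of hair cells, had 427, 474 and 513 at E15 against 96.3, 89.6 and 98.9 in adults (4.96-fold). *Pcdh11x* had 29, 33 and 31 raw counts at E15 and 1 in all adult pools together, a ratio of 54.0 with a counting interval of 9.46 to 2156. The 1 count lay in Adult pool 2, without which *Pcdh11x* was 11.7-fold higher at E15 with 3 counts in place of the 0. *Pcdh1* and *Pcdh12* lie on chromosome 18 with 1 gene between them.

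**Figure D3:**
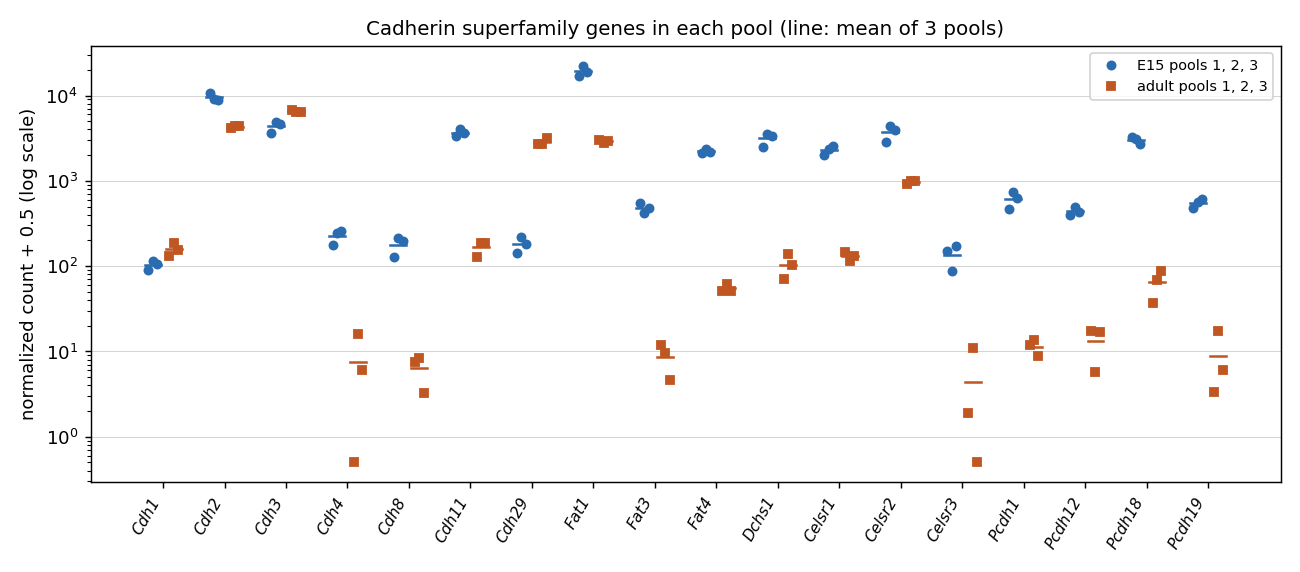
Normalized counts plus 0.5 (log axis) of 18 genes of the cadherin superfamily in each of the 3 E15 pools (blue circles) and 3 adult pools (orange squares), with a line at the mean of each age. *Cdh1*, *Cdh3* and *Cdh29* are higher in the adult and the other 15 at E15, and points at 0.5 are pools with a count of 0.

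The clustered protocadherins, from which neurons draw different combinations of isoforms, had a lower median log2 fold change than the non-clustered ones, a difference that was not tested, although *Pcdhga1*, *Pcdhga2* and *Pcdhga3* exceeded *Pcdh15*. All 17 had a positive log2 fold change, from 0.72 for *Pcdhga11* to 3.52 for *Pcdhga2*, with a median of 1.36, and 13 passed the threshold. Under total-count scaling all 17 passed, and over all genes tested 9799 of 16643 were then called higher at E15, in place of 5773. *Pcdhga2* had 287, 360.4 and 325 normalized counts at E15 against 22.7, 29.9 and 31.6 in adults (11.5-fold), and *Pcdhga3*, the next gene of the cluster, 181, 162 and 151 at E15 against 9.91, 16.9 and 20.6 in adults (10.3-fold). *Pcdhga1*, on the other side of *Pcdhga2*, was 5.88-fold higher at E15. Further along the cluster the difference was smaller, with *Pcdhga5* at 2.91-fold, *Pcdhgb2* at 2.49-fold and *Pcdhga11*, with 152, 128 and 127 at E15 against 90.6, 97.4 and 59.1 in adults, at 1.65-fold. *Pcdhga11* passed only with all pools or without Adult pool 2.

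The 10 *Pcdhb* genes of the set lie on chromosome 18, and their fitted log2 fold changes ran from 0.98 for *Pcdhb3* to 2.08 for *Pcdhb6*. *Pcdhb4* had 72.8, 67.8 and 58.0 normalized counts at E15 against 21.2, 26.0 and 12.4 in adults (3.31-fold). *Pcdhb6* had 25.4, 42.4 and 30.6 at E15 against 7.08, 15.6 and 0 in adults, which was 4.24-fold with all pools, 8.88-fold without Adult pool 2 and 2.80-fold without Adult pool 3, and it did not pass without E15 pool 2 or 3 or Adult pool 1. *Pcdhb3* (1.97-fold) did not pass without E15 pool 2 or Adult pool 3. *Pcdhb17* was 3.44-fold higher at E15, and 5.30-fold without Adult pool 1, and it lost its call without E15 pool 2, E15 pool 3 or Adult pool 2. *Pcdhb5*, *Pcdhb9*, *Pcdhb11* and *Pcdhb16* did not pass the threshold. Of these *Pcdhb11* passed without Adult pool 2 (6.25-fold) and *Pcdhb5* without Adult pool 3 (4.17-fold), while *Pcdhb16* went from 2.07-fold to 3.54-fold without Adult pool 1 and still did not pass. *Pcdhb19* and *Pcdhb22* stood at 2.57-fold and 2.05-fold, and *Pcdhb22* lost its call without any 1 of E15 pools 2 and 3 and Adult pools 2 and 3.

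The identifier named *Pcdha13* (267, 259 and 237 normalized counts at E15 against 103, 169 and 63.2 in adults, 2.27-fold) is described in the authors' table as protocadherin alpha-4. The alpha and gamma genes share their last exons and the beta genes are near copies, and reads without a unique place had been discarded, so the split of counts among these genes is uncertain. *Pcdh21* and *Pcdh24*, whose symbols have since been moved to cadherin-related proteins, went in opposite directions. *Pcdh24*, a brush border protein, was 3.03-fold higher at E15 (27.8, 24.6 and 35.3 against 14.2, 7.79 and 6.87), and lost its call without E15 pool 3. *Pcdh21*, a photoreceptor protein, had 18.8, 19.3 and 18.8 at E15 against 17, 87.0 and 70.0 in adults. Its 3.05-fold adult excess overlapped E15 through Adult pool 1, and it did not pass without any 1 of E15 pools 2 and 3 and Adult pools 2 and 3, or with total-count scaling.

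Contactins, which are held to the membrane by a lipid anchor, split within the family. *Cntn1*, an axonal adhesion protein, had 14856, 15300.0 and 15686 normalized counts at E15 against 71909, 72479 and 76217 in adults (4.81-fold, log2 fold change -2.27, SE 0.09). *Cntn3* had 651, 494 and 493 at E15 against 1304, 1443 and 1378 in adults (2.52-fold, log2 fold change -1.33, SE 0.14). *Cntn4* lies on chromosome 4 with 2 genes between it and *Cntn3*. It had 314, 261 and 253 at E15 against 53.8, 28.6 and 20.6 in adults (8.04-fold at E15, log2 fold change 3.01, SE 0.33). *Cntn3* and *Cntn4* thus went in opposite directions, and in none of the 3 contactin genes did the ages overlap.

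*Cntn2*, known from outgrowing axons, had 406, 187 and 349.8 normalized counts at E15 against 36.8, 48.0 and 13.7 in adults (9.49-fold, log2 fold change 3.25, SE 0.43). *Cntnap4*, a contactin-associated protein of interneurons, had 67.9, 32.3 and 33.7 at E15 against 1.42, 23.4 and 2.75 in adults, 4.71-fold with all pools. Without Adult pool 2 the adult held 3 counts and the ratio was 21.2, with a counting interval of 7.12 to 104, and without Adult pool 1, Adult pool 3 or E15 pool 1 it did not pass. *Cntn5* had 11, 3 and 9 raw counts at E15 against 0, 2 and 0 in adults (ratio 6.68, counting interval 1.65 to 58.4). It passed without Adult pool 2, but not without any other pool. Without Adult pool 2 it was 2.90-fold higher at E15 with 3 counts in place of the adult 0.

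The NCAM and L1 family, homophilic adhesion proteins of neurons, spanned a wider range among the adult pools than the fitted difference between ages in 3 of its 5 genes. *Ncam1* had 1066, 1045 and 1099 normalized counts at E15 against 80.7, 257 and 104 in adults (7.22-fold, and 11.3-fold without Adult pool 2). *Nfasc* (neurofascin), next to *Cntn2* on chromosome 13, had 310.2, 313 and 388 at E15 against 87.8, 159.7 and 107 in adults (2.85-fold, log2 fold change 1.51, SE 0.24). *Ncam2* had 101, 47.7 and 53.3 at E15 against 17, 64.9 and 4.12 in adults. The ages overlapped in *Ncam2*, *L1cam* and *Nrcam*, and each time Adult pool 2 lay above E15 pool 2. *L1cam* had 106, 46.2 and 116 at E15 against 15.6, 92.2 and 23.3 in adults, and *Nrcam* 187, 83.2 and 134 at E15 against 65.1, 173 and 17.9 in adults. Without Adult pool 2 the 3 genes passed the threshold, at 6.21-fold, 4.47-fold and 3.19-fold higher at E15.

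Nectins and Cadm proteins are immunoglobulin-type adhesion molecules of junctions and synapses, and all 7 were higher at E15 (median log2 fold change 2.10). *Pvrl2* (nectin-2) had 2202, 3199.6 and 3029 normalized counts at E15 against 538, 519 and 603 in adults (5.08-fold). *Pvrl1* was 4.27-fold higher at E15, and *Pvrl3*, with 1747, 1548 and 1579 at E15 against 1204, 958 and 1077 in adults, 1.51-fold. *Cadm1* had 1306, 1175 and 1179.5 at E15 against 188, 248 and 195 in adults (5.79-fold). *Cadm3*, a neuronal member, had 269, 246 and 298 at E15 against 14.2, 84.4 and 12.4 in adults, which was 7.22-fold with all pools and 19.8-fold without Adult pool 2. *Cadm4* was 2.20-fold higher at E15. *Cadm2* had 31.9, 20 and 31.4 at E15 against 14.2, 5.19 and 0 in adults, 4.28-fold with all pools, 9.88-fold without Adult pool 1 and 2.83-fold without Adult pool 3. It did not pass without E15 pool 1 or 3 or Adult pool 2 or 3.

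Neuroligins and neurexins face each other across synapses, and the 4 genes named were higher at E15. *Nlgn3* had 625, 917 and 930.1 normalized counts at E15 against 25.5, 66.2 and 30.2 in adults (20-fold, log2 fold change 4.32, SE 0.33). *Nrxn2* had 402, 529 and 565 at E15 against 60.9, 182 and 31.6 in adults (5.41-fold, and 10.5-fold without Adult pool 2). *Nlgn1*, the neuroligin of excitatory synapses, was 5.28-fold higher at E15. *Nlgn2*, that of inhibitory synapses, had 283, 546 and 549.7 at E15 against 239, 291 and 254 in adults (1.76-fold), so Adult pool 2 overlapped E15 pool 1, and it did not pass without E15 pool 2 or 3 or Adult pool 1 or 3. Of 16 named synaptic and axonal partners 10 were higher at E15 and 4 in the adult (12 and 1 with total-count scaling). Among those higher at E15 were *Cbln1*, which bridges neurexins to glutamate receptors (5.81), and the latrophilin *Lphn2* (5.50). Among those higher in the adult were *Shank2* (-1.51, SE 0.11) and *Lrrtm2*, a neurexin ligand (-1.68, SE 0.56). *Lrrtm2* had few raw counts, 37, 8 and 15 at E15 against 42, 47 and 25 in adults.

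The spread among pools of 1 age was not itself used to choose the genes. Among genes with a mean normalized count of at least 20, 18 of 51 members (35.3%) varied more than 2-fold among the adult pools, against 7.72% of all genes tested. Pool 2 was the highest for 13 of the 18. Members were often of low count, and at a mean of at least 100 the numbers were 2 of 29 (6.90%), both highest in pool 2, against 1.23%. At E15, 9 of 79 members (11.4%) varied that much, against 9.19% of all genes tested. Pool 1 was the highest for 7 of the 9 and pool 2 the lowest for 8.

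**Figure D4:**
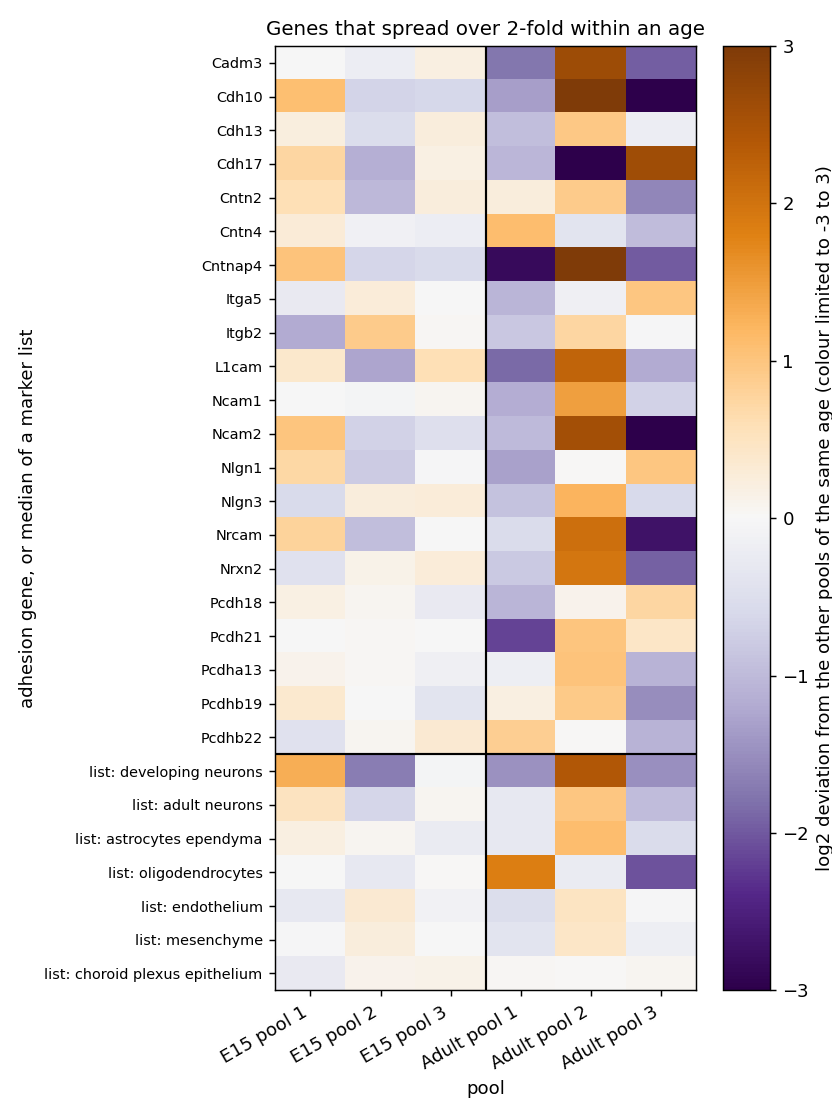
Log2 deviation of each pool from the mean of the other pools of its age, on normalized counts plus 0.5, for the 21 members that varied more than 2-fold among the pools of an age at a mean of at least 20, with medians of 7 marker lists under the line. Colours end at -3 and 3. Most members are highest in Adult pool 2, as are the developing neuron (2.41), astrocyte and ependymal (1.11) and adult neuron (0.98) lists. The endothelial (0.47) and mesenchymal (0.43) lists are also highest there, while the oligodendrocyte list is highest in Adult pool 1 (1.83).

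The NCAM and L1 family had the largest family median log2 deviation in Adult pool 2, at 2.04 from the other adult pools, and it stood at 0.39 in E15 pool 1 and -0.68 in E15 pool 2. Markers of developing neurons deviated in the same pools. Their median was 2.41 in Adult pool 2 over the 4 genes with a mean of at least 20, and 1.31 in E15 pool 1 and -1.68 in E15 pool 2 over 11 genes. Between ages, 10 of the 11 markers were higher at E15, their summed normalized counts ranging from 1853 to 5874 at E15 and from 176 to 840 in the adult, with *Neurod6* and *Nhlh1* at 0 in every adult pool. Of 5 markers of mature neurons 3 were higher in the adult (0 with total-count scaling) and 1 at E15 (445 to 628 at E15, 295 to 725 in the adult), and they deviated by 0.98 in Adult pool 2. Astrocyte and ependymal markers deviated by 1.11 there. Of the 5 named, 4 were higher in the adult (3 with total-count scaling) and 1, *Slc1a3*, at E15 (median log2 fold change -3.09). They summed to 4716 to 5503 at E15 and 4182 to 7336 in the adult, with *Tmem212* at 0 at E15. *Slc1a3* alone had a mean of 3464 at E15 and 770 in the adult. Endothelial markers deviated by 0.47 and mesenchymal ones by 0.43 in that pool, and the epithelial markers by 0.00. The part of neural tissue in the values of the NCAM and L1 family, the contactins, *Cadm3* and *Nrxn2* was not tested.

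In Adult pool 1 the markers of oligodendrocytes were highest as a list, with a median log2 deviation of 1.83 over 7 genes. *Cldn11* was highest in Adult pool 2. Between ages, 5 of the 7 were higher in the adult (4 with total-count scaling), and *Mog* (1.14) and *Cldn11* (0.84) at E15. Sums ran from 1791 to 1921 at E15 and from 2068 to 7970 in the adult. The part of these cells in the members' values was not tested.

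Among genes higher in the adult, *Itga7*, *Itgb4*, *Itgb6*, *Itgb8*, *Cdh29* and *Cntn1* each varied less than 2-fold among the adult pools. *Pcdh21* (5.12-fold) and *Itgb2* (2.09-fold) varied more, as did *Cdh16* and *Cdh19* on few counts. A range under 2-fold was common, since only 7.72% of all genes with a mean of at least 20 exceeded it among the adult pools, and 9.19% at E15. The 9 epithelial markers also varied less than 2-fold among the adult pools, and all 9 were higher in the adult (median log2 fold change -3.16, and -2.35 with total-count scaling). The part of a larger epithelial share of the RNA in these genes was not tested. Among the members enriched at E15, *Fat1*, *Fat4*, *Celsr1*, *Cdh11* and *Itga6* likewise varied less than 2-fold within each age.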

How the data were processed

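RNA-seq counts were analysed for 3 E15 and 3 adult pools of rat lateral ventricular choroid plexus, grouped by the age in the labels. The deposited values are raw counts per Ensembl gene, for which the authors trimmed single-end reads, aligned them to Ensembl rat release 61 (Bowtie 0.12.7), kept uniquely placed reads and assigned those to genes with HTSeq 0.4.7p4 in union mode. Depth was 17875089 to 19204440 counts per library. Intervals (95% exact binomial) cover counting error only. Where an age had 0 counts, 3 counts were put in their place, and the counting error of the higher age was left out. A second table of the authors holds their fold changes, abundances and p-values from edgeR 2.4.0, and only its names were used.

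Genes with more than 10 counts in all were fitted with edgeR 4.0.16 (TMM factors, estimateDisp, glmQLFit, glmQLFTest, age as the only term) in R 4.3.3, with Benjamini-Hochberg adjustment over 16643 genes and a threshold of 0.05. p-values measure the spread between 3 pools per age. The common dispersion was 0.0332, and the scripts were tested on simulated data. Alternatives were RLE, upper-quartile and total-count scaling (with and without the 10 most abundant genes), other filters, DESeq2 1.42.0, limma-voom (limma 3.58.1), an exact test with a common dispersion, a replicate block and leaving out each pool.

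Members, marker lists and partner lists were chosen with earlier results of these data known, and only genes named by the authors could enter them. All members may be named. In each family those described in full were the 3 with the highest mean count and the 3 with the largest fold change in each direction at a mean over 100. Genes with at most 3 raw counts at one age and over 100 at the other were to be added, but no gene met this. Promoters are from RefSeq (GRCr8), and figures were made with Python 3.11.15 and matplotlib 3.10.9. Protein sequences and transcript lengths were not used here, and the result of 1 other gene is not reported here.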

Additional observations from a re-analysis of the deposited data

How the results depend on the processing

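Against 59 members higher at E15 and 14 in the adult, with a median log2 fold change of 2.08, scaling by total counts only gave 8 adult members and a median of 2.88, and total counts without the 10 most abundant genes gave 9 and 2.54. Under total counts only *Cdh1* (0.20), *Cdh3* (0.23) and *Itgb1bp1* (0.17) changed sign, following the shift of the median of all genes from 0.14 to 0.95, and 81.0% of all calls were at E15 in place of 54.2%. The other scalings, filters and tests gave 43 to 68 members at E15 and 12 to 15 in the adult, the lowest being the filter on a mean count over 100, which tested 57 members. Leaving out 1 pool gave 50 to 61 and 12 to 15 members and medians of 1.86 to 2.32. The labels do not say whether pools with the same number at both ages share a preparation. Their deviations from the group means correlated at -0.007, -0.011 and -0.038, and those of the other pairs at -0.019 to 0.041. Such values over all genes cannot settle it. The replicate block gave 57 and 12 members, losing *Pcdh21*, *Pcdhb22*, *Cdh12* and *Cdh1*, and 9928 calls over all genes in place of 10652. With 3 pools per age and counts under about 20 in the adult, 1 pool decided several folds of low genes. Folds of genes above that level also moved without Adult pool 2. Examples were *Ncam1* (adult mean 147, 7.22-fold to 11.3-fold) and *Nrxn2* (adult mean 91.4, 5.41-fold to 10.5-fold). The levels of members with near-identical copies are uncertain.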

Other observations

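Some genes of the same families were in the authors' table under other names and so outside the set. Cadherin-6 had 370, 466 and 350 raw counts at E15 against 1, 8 and 2 in adults (log2 fold change, E15 over adult, 5.94), and integrin alpha-8 had 1766, 1773 and 1616 at E15 against 182, 242 and 264 in adults (2.12). Integrin beta-5, a further partner of the alpha-v subunit, had 1763, 2568 and 2575 at E15 against 8164, 8404 and 7970 in adults (-2.62). The poliovirus receptor, a nectin-like protein (1.55), cadherin-23, the partner of protocadherin-15 in tip links (1.76), and *Cdh5* (2276, 3528 and 2919 at E15, 34, 88 and 50 in the adult, 4.88) were higher at E15. These values were looked up after those of the set were known.

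Neural progenitor markers were higher at E15 for 10 of 10 named genes (median log2 fold change 3.72), with summed normalized counts of 33055 to 33895 at E15 and 3007 to 4056 in the adult. Most of the sum at E15 came from *Vim*, with a mean of 25394. The median log2 deviation of these markers was 0.62 in E15 pool 1 and -0.61 in E15 pool 2 over 10 genes. In Adult pool 2 it was 0.49 over 7 genes. Proliferation genes were higher at E15 for 7 of 7 (median 5.76), with sums of 11303 to 12453 and 387 to 522. Their part in the members' values was not tested.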
